A study of Mus musculus with 4 samples.

Results

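Of 51 genes that work in mitosis, 49 were measured on 4 one-colour Agilent microarrays of cultured mouse helper T cells. The set was chosen by function and named gene by gene, with earlier results of these data known, and holds cyclins and kinases of mitotic entry, the spindle checkpoint, the chromosomal passenger complex, kinesins, kinetochore and spindle proteins, and genes of anaphase and cytokinesis. Kif14, a kinesin, and Prc1, which bundles microtubules in the spindle midzone, were matched to no probe by transcript accession. The 49 were part of 18745 genes named on the arrays, and each was well above background, by the scanner's flag, on all 4 arrays. Of their 75 probes, 71 were well above background on every array.

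The study asked how Bach2, a transcription repressor of the CNC family, acts in helper T (Th) cells. Mice of the groups WT and Bach2 KO, the latter Bach2flox/flox × CD4-Cre TG, were on the C57BL/6J background and labelled female, and the study's mice were 8 to 12 weeks old. Cre driven by the Cd4 promoter removes floxed alleles in cells that express or have expressed CD4, so the loss is not limited to helper T cells. Naive CD4 T cells of the spleen were stimulated for 2 days with antibodies to TCR-β (3 μg/ml) and CD28 (1 μg/ml), and IL-2 was given for the next 3 days, at 2.5 ng/ml per the labels, where the study's methods give another concentration. They were taken then, as WT (-) and KO (-), or after 4 h of re-stimulation with immobilized anti-TCR-β mAb without added IL-2, as WT (+) and KO (+). The re-stimulated groups thus differ from the others in both the antibody and the withdrawal of IL-2. Each of the 4 conditions was 1 array, so no difference has a replicate check, no test between conditions was made, and no p-value is given.

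As background, a dividing cell enters mitosis when Cdk1 bound to a B-type cyclin is activated by Cdc25 phosphatases. Kinesins and other microtubule proteins build the spindle, kinetochores hold the chromosomes to it, and the spindle checkpoint holds back the anaphase-promoting complex until all are attached. Most of these transcripts accumulate late in the cell cycle, so their level in a population is widely used as a measure of cycling. T cells divide fast for some days after a first stimulation. In RNA from a bulk culture, fewer cells in G2 or mitosis and less of the transcript per such cell cannot be told apart.

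The probe for the targeted gene, Bach2, gave signals of 2932 in WT (-), 2633 in KO (-), 3310 in WT (+) and 3080 in KO (+), a log2 difference between KO and WT of -0.15 before and -0.28 after re-stimulation. Where this probe lies relative to the deleted part is not given in the sources used here, so arrays carry the names of their labels here. The Y-linked genes Eif2s3y, Ddx3y and Kdm5d were well above background on the KO arrays and not on the WT arrays, against the label female on all 4. Xist, the transcript of the inactive X chromosome in females, was well above background on all 4, with signals of 9524, 4623, 5221 and 2585. The KO arrays thus held both Xist and Y-linked transcripts. Per the study's methods, its in vitro work drew on mice of either sex. Sex and genotype cannot be told apart here. All 10 T cell identity genes were well above background on all 4 arrays, while of the B cell genes Cd79a, Ms4a1 and Pax5 were so on none. The 9 measured mast cell and basophil genes had summed signals of 201, 1288, 321 and 1744 in WT (-), KO (-), WT (+) and KO (+), where 2, 6, 1 and 6 were well above background, with Ms4a2, Mcpt4 and Tpsb2 well above background on none. Of the 5 myeloid genes, Adgre1 was well above background on all 4 arrays, with signals of 185, 410.4, 48.2 and 160.3, while Lyz2 and Itgam were so on none and the sum over the list was 224, 460.1, 81.5 and 198. The erythroid gene Hba-a1 had signals of 8684, 1505, 4599 and 1010.1 in the same order, with Alas2 and Klf1 well above background on none. The part of these differences in the results was not tested. The 4 arrays lay on 1 slide, and position on the slide and condition cannot be told apart.

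Genes of late G2 and mitosis commonly carry CCAAT boxes, bound by the factor NF-Y, and a cell cycle genes homology region (CHR), which has the letters TTTGAA or TTCGAA and is bound by the DREAM, MuvB-Mybl2 and Foxm1 complexes. The promoters of 4 members with such letters, and of Nusap1, in which the lowest KO value relative to WT was found and which has none, are shown as the 200 bases just upstream of the RefSeq start site in GRCm38.p6, 5′ to 3′ on the strand of the gene. Capitals mark CCAAT or its complement ATTGG, and TTTGAA or TTCGAA or their complements. The windows are chr13:100786487-100786686 (minus strand) for Ccnb1, chr9:70421555-70421754 (minus) for Ccnb2, chr10:69352913-69353112 (minus) for Cdk1, chr4:118437344-118437543 (minus) for Cdc20 and chr2:119618098-119618297 (plus) for Nusap1.
Ccnb1: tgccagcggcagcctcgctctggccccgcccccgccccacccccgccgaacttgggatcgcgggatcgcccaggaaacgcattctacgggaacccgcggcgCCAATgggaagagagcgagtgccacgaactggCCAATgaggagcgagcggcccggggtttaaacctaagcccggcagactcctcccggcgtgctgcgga
Ccnb2: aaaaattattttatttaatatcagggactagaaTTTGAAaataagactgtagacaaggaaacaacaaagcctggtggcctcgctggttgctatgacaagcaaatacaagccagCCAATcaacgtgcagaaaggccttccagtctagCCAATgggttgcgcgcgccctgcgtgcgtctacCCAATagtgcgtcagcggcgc
Cdk1: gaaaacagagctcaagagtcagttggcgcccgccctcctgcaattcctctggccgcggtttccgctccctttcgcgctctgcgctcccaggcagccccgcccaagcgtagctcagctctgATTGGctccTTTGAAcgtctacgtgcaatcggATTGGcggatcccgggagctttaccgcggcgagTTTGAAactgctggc
Cdc20: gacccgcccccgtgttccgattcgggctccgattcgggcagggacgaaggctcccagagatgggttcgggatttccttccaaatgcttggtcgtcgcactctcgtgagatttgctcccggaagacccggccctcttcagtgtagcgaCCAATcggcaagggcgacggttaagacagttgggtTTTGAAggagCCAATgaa
Nusap1: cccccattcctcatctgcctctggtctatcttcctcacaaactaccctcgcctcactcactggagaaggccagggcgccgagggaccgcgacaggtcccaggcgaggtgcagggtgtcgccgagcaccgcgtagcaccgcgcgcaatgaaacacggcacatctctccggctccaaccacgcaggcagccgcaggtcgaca
Ccnb1 carried 2 CCAAT boxes, starting 99 and 67 bases before the start site, and Ccnb2 carried 3, at 87, 54 and 21 bases. In Cdk1, ATTGG stood 80 and 48 bases before the start and TTTGAA 71 and 15 bases before it. Cdc20 had CCAAT at 53 and 8 bases and TTTGAA at 18.

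Of the 51 genes, 44 had a window in the RefSeq promoter table. Both strands of the 250 bases upstream were searched, and 1 pair of matches in the members' windows overlapped. CCAAT was present in 31 of the 44 (70.5%), against 37.5% of 27025 genes in the table with windows of the same length. At least 2 CCAAT matches were present in 20 (45.5%), against 11.5%. The CHR letters were present in 17 (38.6%), against 19.6%, and both kinds in 15 (34.1%), against 7.93%. In lists described below, CCAAT was present in 60.3% of other mitosis genes, 60% of DNA replication genes and 57.9% of G2/M regulators. In D cyclins and CDK inhibitors it was present in 33.3%. The CHR letters were present in 46.0%, 20%, 36.8% and 11.1% of these lists, in the same order. Both kinds were present in 28.6%, 17.1%, 31.6% and 0%. The letters are thus not particular to the members. These are counts of letters, not of bound sites. Ccna2, Foxm1, Cdc25c, Tpx2, Kif20a, Incenp and Aurkb were not in the table.

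Before re-stimulation the mitotic genes were slightly lower in KO than in WT cells, and nearly all in the same direction. After re-stimulation they were lower in cells of both genotypes, and the gap between the genotypes was wider. The lowest level of most members was that in KO (+). A difference is given as log2 of the scanner's background-corrected signal after each array was scaled to its 75th percentile, which was 436 in WT (-), 434 in KO (-), 313 in WT (+) and 353 in KO (+). Signals are printed unscaled and always in the order WT (-), KO (-), WT (+), KO (+), so their ratios between arrays differ from the scaled differences.

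Between genotypes before re-stimulation, 48 of the 49 members were lower in KO than in WT cells, where 50.4% of the 12133 genes used were lower, and the median difference was -0.36, or 1.28-fold lower. With the arrays scaled to the Cd3e probe, 47 were lower and the median was -0.22. No member reached a 2-fold difference, which 2.81% of genes reached downwards and 5.26% upwards. At a 1.5-fold difference 6 members were lower, against 6.69% of genes, namely Kif23, Top2a, Cdc25c, Ccna2, Bub1b and Espl1. Of all genes, 13.5% had a value as low as the members' median. The shift was thus small for any single gene and had the same direction in 48 of the 49. The SD over members was 0.158, against 0.635 over all genes. These SDs are of unlike sets: every member was well above background on each array, while the genes used include some that were not. The SD over all genes also includes values from -8.53 (Dapl1) to 6.43 (Cyp11a1). The contrast of SDs therefore cannot show that the shift was shared.

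After re-stimulation, again 48 of 49 were lower in KO, where 48.1% of 12345 genes were lower. Their median difference was -0.74, or 1.67-fold lower. A 2-fold lower signal in KO was seen in 7 members, against 3.85% of genes, and a 1.5-fold lower one in 38, against 9.17%. The 7 were Nusap1, Cdc25b, Racgap1, Ccna2, Cenpf, Kif23 and Ccnb2. With the Cd3e scaling the count at 2-fold was 2, against 3.26% of genes, which lies near that share. With normexp background correction and quantile normalization it was also 2, against 1.89%. The count at 2-fold thus depended on the setting. None was 2-fold higher, against 5.17% of genes. Of all genes, 6.41% were as low as the members' median.

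Re-stimulation of WT cells for 4 h came with lower signals in 48 of the 49 members, where 50.2% of 12385 genes were lower, and their median difference was -0.93, or 1.90-fold lower. At 2-fold, 21 members were lower, against 13.5% of genes, and none was higher, against 13.2%. At 1.5-fold, 41 were lower, against 25.4%, and 1, Kif15, was higher, against 23.8%. In KO cells 47 of 49 were lower after re-stimulation, against 49.4% of 12392 genes. The median there was -1.32, or 2.49-fold lower, and 36 members were at least 2-fold lower, against 13% of genes, with none higher, against 12.4%. At 1.5-fold, 45 were lower, against 23.9%. The number lower in any amount ran from 46 to 49 in WT and in KO cells over the scalings and probe rules tried. The count at 2-fold in WT cells depended on the scaling, being 38 with scaling to the median of each array, against 21.5% of genes, and 10 with scaling to Cd3e, against 8.02%. Under those scalings the median of all genes shifted by -0.30 and 0.30 in WT and by -0.27 and 0.26 in KO cells. The members' median minus that of all genes, -0.92 in WT and -1.32 in KO cells, cannot change under them, since each moves all genes alike. With normexp background correction and quantile normalization, which can change it, it was -0.91 in WT and -1.18 in KO cells.

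**Figure D1:**
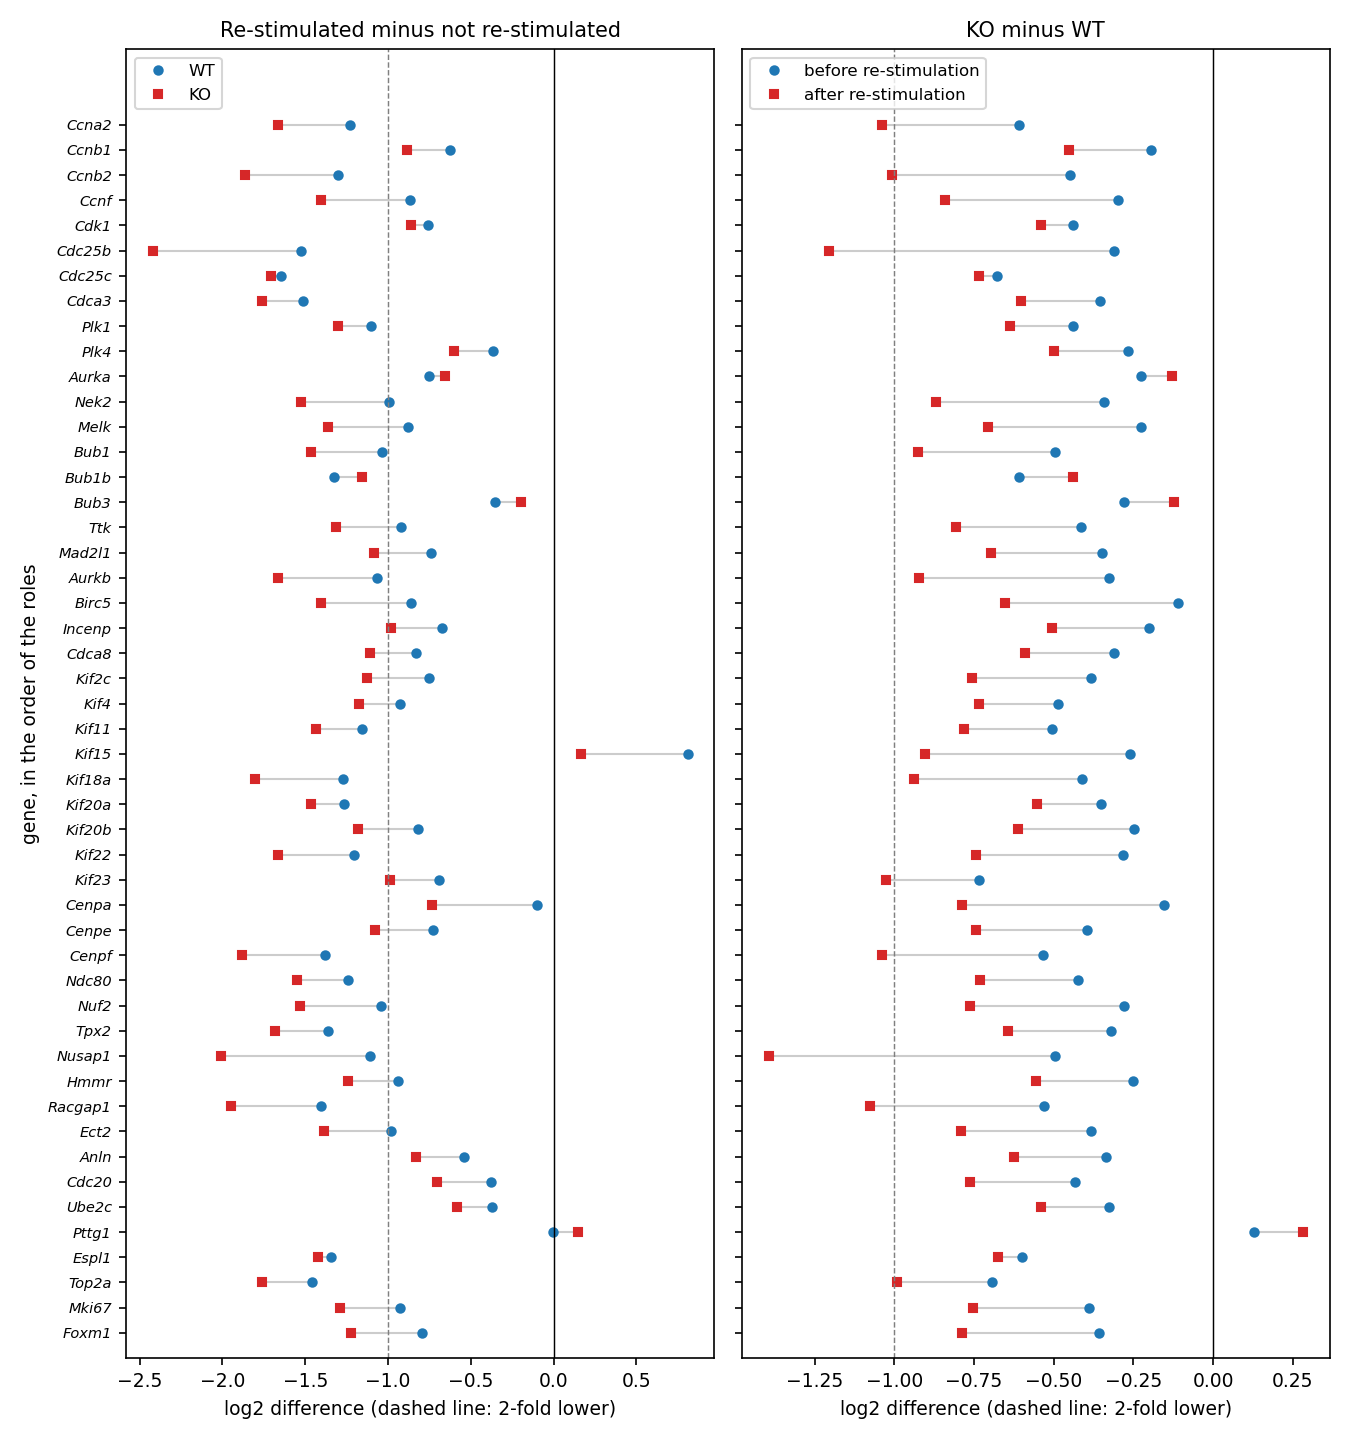
Log2 differences of the 49 members (vertical axis, in the order of their roles) between re-stimulated and not re-stimulated cells (left panel, WT in blue and KO in red) and between KO and WT (right panel, before re-stimulation in blue and after it in red). Each point is 1 array minus 1 array, and the dashed line marks a 2-fold lower signal. Most points lie left of 0 in both panels, and in 45 of 49 genes the red square lies left of the blue point.

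The response to re-stimulation was lower in KO than in WT cells in 45 of 49 members, against 50.6% of 11816 genes, with a median difference of responses of -0.35. None differed by 2-fold, against 3.76% of genes lower and 2.62% higher, and 5 were at least 1.5-fold lower, against 8.76% of genes: Nusap1, Cdc25b, Kif15, Cenpa and Aurkb. In 31 members this difference was larger than the error that the scanner's model gives for it, 0.289 for most. The difference of responses equals the widening of the genotype gap, so both describe the same 4 values. The genotype differences at the 2 times come from separate pairs of arrays, and Pearson's r between them was 0.57 across the 49 members and 0.62 across 10807 genes. Between the responses in WT and KO cells, also from separate pairs, r was 0.90 in both sets, a description across genes that are not independent.

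**Figure D2:**
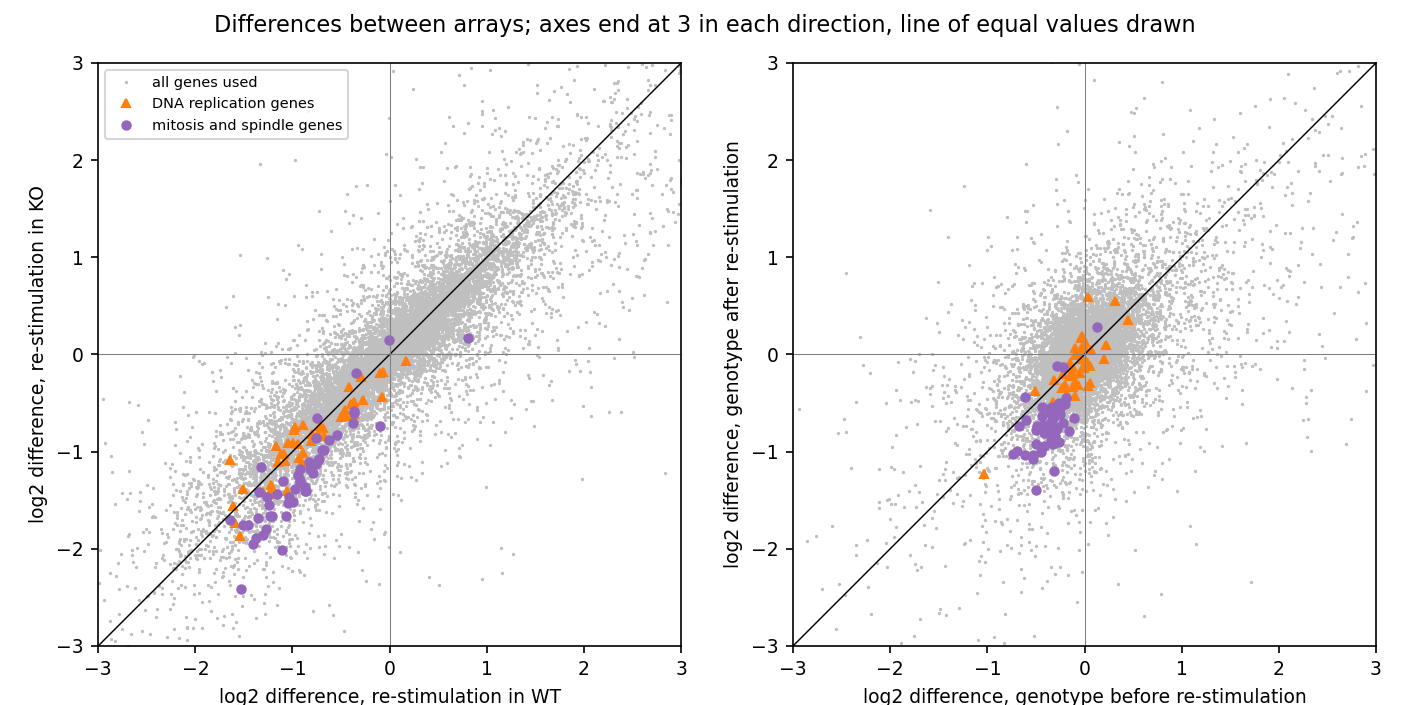
Log2 difference of each gene for re-stimulation in WT against that in KO (left) and for KO minus WT before against after re-stimulation (right). Grey dots are all genes used, purple circles the 49 mitosis and spindle genes, orange triangles 43 DNA replication genes, and the line marks equal values. The purple circles lie low along the line and mostly below it on the left, and below 0 on both axes on the right, where most orange triangles lie around 0.

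The error of a difference can be judged in 2 ways, neither of which covers variation between mice or cultures. The SD between probes of one gene had a median of 0.094 and 0.11 for the genotype differences before and after re-stimulation, and of 0.16 and 0.14 for the response in WT and KO. These medians are over all genes with several probes well above background. The 90th percentiles were 0.33, 0.36, 0.61 and 0.54 in the same order. The largest values among members were 0.68 in Kif11, 0.48 in Bub1, and 1.37 and 1.16 in Kif15, also in that order. The error of a difference from the scanner's model was 0.204 at the median over members. By that measure, on the probe used for each gene, some members lay within the error. For the genotype difference they were Ccnb1, Birc5, Incenp, Cenpa and Pttg1 before re-stimulation, and Aurka and Bub3 after it. For the response they were Cenpa and Pttg1 in WT, and Bub3, Kif15 and Pttg1 in KO cells.

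Among genes of mitotic entry, all 8 were lower in KO cells and after re-stimulation. Their median differences were -0.40 and -0.79 between genotypes before and after re-stimulation, and -1.27 and -1.68 for re-stimulation in WT and KO cells. Ccna2, cyclin A2, which works in S phase and at mitotic entry, had signals of 15778, 10288, 4813 and 2641. Its difference between KO and WT was -0.61 before and -1.04 after re-stimulation, and its response to re-stimulation was -1.23 in WT and -1.66 in KO cells. Ccnb2, cyclin B2, a partner of Cdk1, had signals of 42033, 30618, 12198 and 6845, with a genotype difference of -0.45 before and -1.01 after and responses of -1.30 and -1.86. Each step down in these cyclins lay beyond the scanner's error.

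Cyclin B1, Ccnb1, differed less on its brightest probe, with signals of 5018, 4363, 2329.6 and 1922. Its differences were -0.20 and -0.45 between genotypes and -0.63 and -0.88 on re-stimulation in WT and KO. Its other, dimmer probes gave -0.38, -0.71, -0.57 and -0.90, and -0.32, -0.60, -0.52 and -0.80, in the same order. Between genotypes these lay nearer the members' medians than the values of the brightest probe. The kinase Cdk1 itself had signals of 5275, 3874, 2233 and 1731 and differences of -0.44, -0.54, -0.76 and -0.86 in the same order. Neither reached 2-fold in any comparison. Cdc25b, the phosphatase that starts Cdk1 activation at the centrosome, had signals of 16229.7, 13009, 4037 and 1977. Its response to re-stimulation was -1.53 in WT and -2.42 in KO cells, the lowest value of any member in KO, and its genotype difference went from -0.31 to -1.20. All 3 Cdc25b probes were at least 2-fold lower in KO (+) than in WT (+).

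Cdc25c, a related phosphatase, had signals of 555, 345, 127 and 86.1 and the lowest response in WT cells, -1.65, with -1.70 in KO. Its genotype difference, -0.68 before and -0.73 after, was nearly the same at both times. On its other, dimmer probe the difference was -0.68 before and -0.49 after. Cdca3, a trigger of mitotic entry through degradation of Wee1, had signals of 14173, 11020.5, 3559 and 2644, with genotype differences of -0.36 and -0.60 and responses of -1.51 and -1.76. For Ccnf, cyclin F, a substrate receptor of an SCF ubiquitin ligase, the signals were 2378, 1922, 934 and 589, the genotype differences -0.30 and -0.84, and the responses -0.87 and -1.41. Cdc25b and Cdc25c therefore had similar responses in WT cells and unlike widening of the genotype gap.

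The 5 mitotic kinases had a median response of -0.88 in WT and -1.30 in KO cells and median genotype differences of -0.27 and -0.64. Plk1, which drives centrosome maturation and mitotic entry, had signals of 26321, 19332, 8786 and 6371 and responses of -1.10 and -1.30, with genotype differences of -0.44 and -0.64. Nek2, a kinase of centrosome separation, had signals of 1436, 1127, 516 and 319 and responses of -0.995 and -1.52, with genotype differences of -0.34 and -0.87. Melk, a kinase high in cycling cells, had signals of 2072, 1765, 809 and 559, responses of -0.88 and -1.36, and genotype differences of -0.22 and -0.71. These 3 kinases were at least 2-fold lower on re-stimulation in KO cells, and Plk1 also in WT, where Nek2 lay just short of it.

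Aurka and Plk4 differed less. Aurka, the Aurora kinase of the spindle poles, had signals of 18442, 15700.4, 7843 and 8089.9, and after scaling its genotype difference was -0.23 before and -0.13 after, with responses of -0.75 and -0.66. Plk4, which starts centriole duplication, had signals of 674, 558, 374 and 299, genotype differences of -0.27 and -0.50, and responses of -0.37 and -0.60. Aurka was 1 of 4 members whose response was less negative, or more positive, in KO than in WT, by 0.10, within the scanner's error.

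The 5 spindle checkpoint genes were lower in KO and after re-stimulation by unequal amounts. Bub1, a checkpoint kinase of the kinetochore, had signals of 2199.5, 1552, 769 and 457, with genotype differences of -0.50 and -0.93 and responses of -1.04 and -1.46. Bub1b, which encodes BubR1, part of the complex that inhibits Cdc20, had signals of 3177, 2072, 908 and 755 and responses of -1.33 and -1.16. Its genotype gap did not widen, being -0.61 before and -0.44 after. Ttk, the Mps1 kinase that starts checkpoint signalling, was dim, with signals of 73.2, 54.6, 27.7 and 17.8, of which the last is near the lowest signal called well above background on that array, 17.2. Its genotype differences were -0.42 and -0.81 and its responses -0.92 and -1.32.

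Mad2l1, encoding the checkpoint protein Mad2, had signals of 2499, 1952, 1073 and 747, genotype differences of -0.35 and -0.70 and responses of -0.74 and -1.09. Bub3, a partner of Bub1 and BubR1 that also acts outside mitosis, had signals of 15749, 12917, 8848 and 9162, genotype differences of -0.28 and -0.12, and responses of -0.35 and -0.20. Its other, dimmer probe, well above background on all 4 arrays, had genotype differences of -0.44 and -0.35 and responses of -0.20 and -0.11. Bub3 thus had the smallest responses of the 5, and its response in KO turned to 0.06 when arrays were scaled to Cd3e. Another Bub1 probe, for transcript NM_001113179, did not follow the first on re-stimulation: its signals were 235, 209, 175 and 167, and its responses 0.05 and -0.02.

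All 4 genes of the chromosomal passenger complex, which corrects faulty attachments and later acts in cytokinesis, were lower in KO and after re-stimulation. Aurkb, its kinase, had signals of 1793, 1424, 614 and 366, genotype differences of -0.33 and -0.92, and responses of -1.07 and -1.66. Birc5, encoding survivin, had signals of 51358, 47364, 20231 and 14524 and the smallest genotype difference of the 4 before re-stimulation, -0.11, which turned to 0.03 under the Cd3e scaling. After re-stimulation it was -0.65, and the responses were -0.86 and -1.41. Incenp, the scaffold, had signals of 47821, 41408, 21450.5 and 17042, genotype differences of -0.20 and -0.51, and responses of -0.68 and -0.98. Cdca8, encoding borealin, had signals of 40406, 32425, 16285 and 12213, genotype differences of -0.31 and -0.59, and responses of -0.83 and -1.11. In all 4 the genotype gap was wider after re-stimulation.

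**Figure D3:**
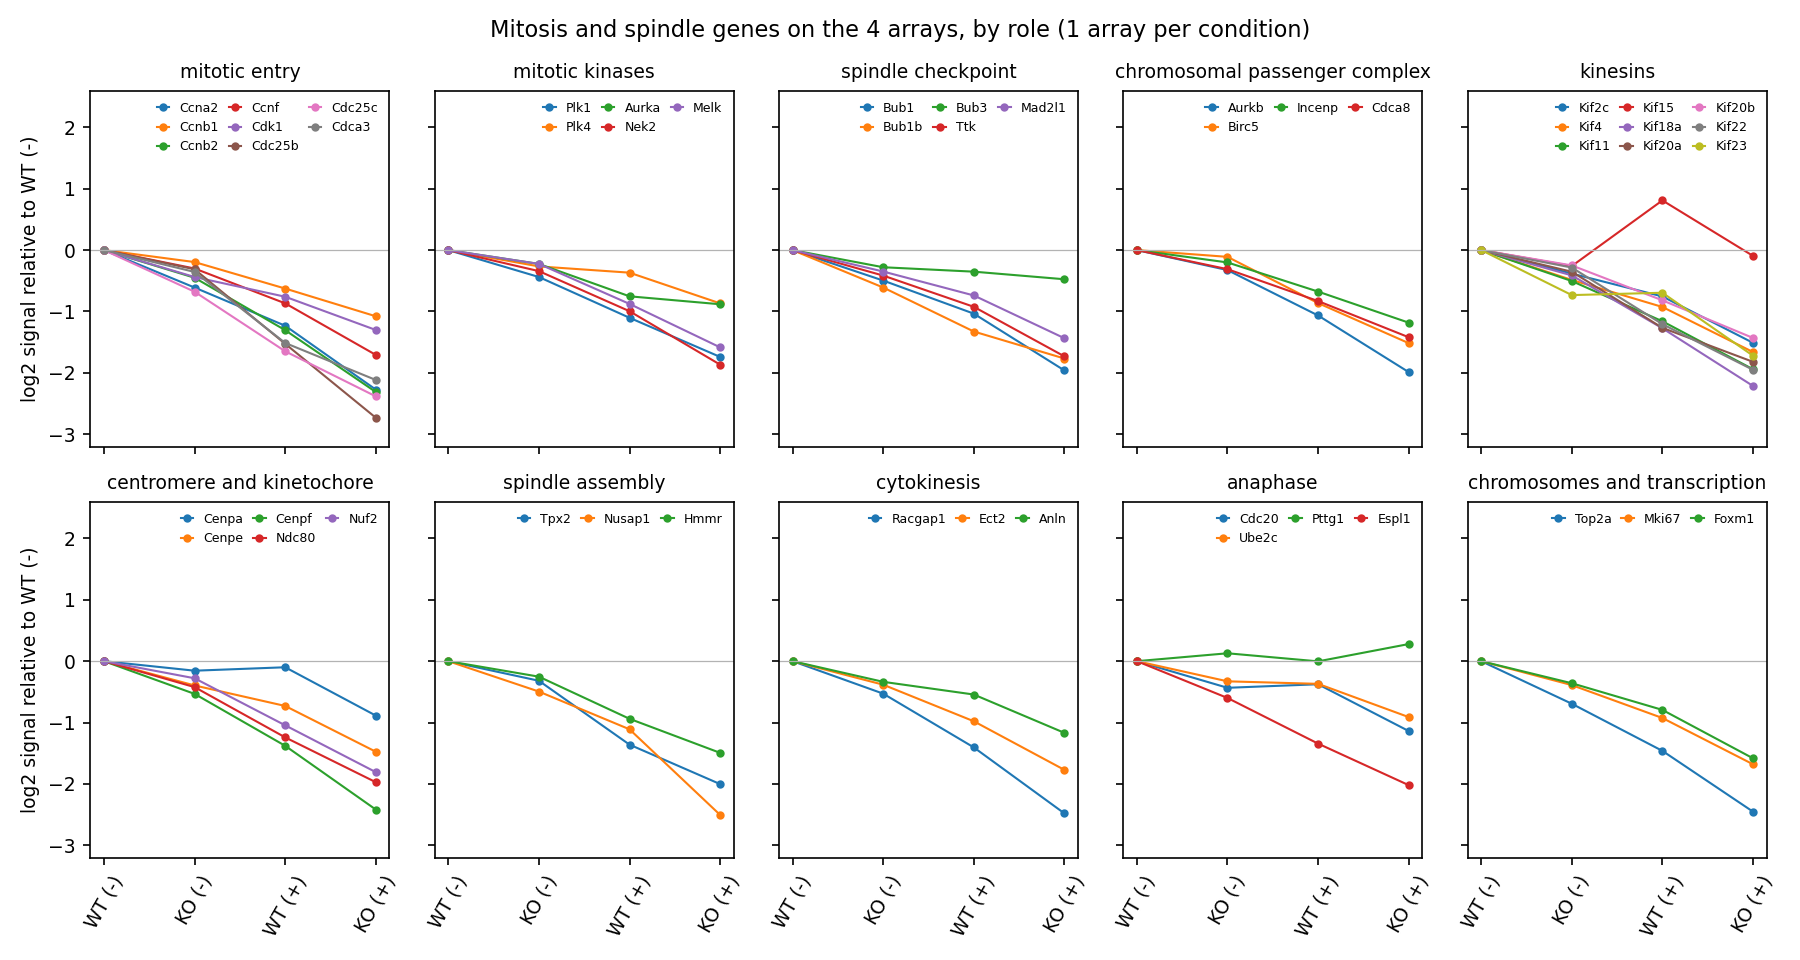
Scaled log2 signal of each of the 49 members relative to its own value in WT (-), by role, on the arrays WT (-), KO (-), WT (+) and KO (+). Lines join the values of 1 gene, with 1 array per condition and no error bars. In most panels the lines step down from left to right, with Kif15 and Pttg1 as the visible exceptions.

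The 9 measured kinesins had a median response of -0.93 in WT and -1.18 in KO cells, and median genotype differences of -0.38 and -0.76. Kif18a, which limits the length of kinetochore microtubules, had signals of 397, 297, 118 and 69.2, genotype differences of -0.41 and -0.94, and responses of -1.27 and -1.80. Kif22, a chromosome-arm motor, had signals of 36467, 29805, 11326 and 7632, with -0.28 and -0.74 between genotypes and -1.21 and -1.67 on re-stimulation. Kif20a, a motor of the late spindle needed for cytokinesis, had signals of 10229.9, 7974, 3047 and 2342, with -0.35 and -0.55, and -1.27 and -1.47. These 3 and Kif11 were the kinesins at least 2-fold lower on re-stimulation in both genotypes.

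Kif11, the motor Eg5 that pushes spindle poles apart, had signals of 644, 452, 207 and 136, genotype differences of -0.50 and -0.78, and responses of -1.16 and -1.44. Its other, dimmer probe, well above background on 3 arrays, had the same direction on re-stimulation, -1.20 and -1.10, and the opposite one between genotypes, 0.46 and 0.56. Kif4, a chromosome-bound motor, had signals of 5809, 4127, 2191 and 1486, genotype differences of -0.49 and -0.73, and responses of -0.93 and -1.17. Kif2c, which depolymerizes microtubules at centromeres, had signals of 925, 706, 393 and 263, with -0.38 and -0.76 between genotypes and -0.76 and -1.13 on re-stimulation. Kif20b, a motor of the late spindle, had signals of 1116, 934, 453 and 335, with -0.25 and -0.61, and -0.82 and -1.18. Each of these kinesins had its lowest value in KO (+).

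Kif23, a motor of the centralspindlin complex of cytokinesis, had signals of 1808, 1083, 801 and 444. It had the lowest genotype difference of all members before re-stimulation, -0.73, and -1.03 after it, while its responses were -0.69 and -0.99. Its level in KO (-) was as low as that in WT (+). Kif15, another motor that keeps spindle poles apart, was the only member higher after re-stimulation in WT cells by more than the scanner's error, with signals of 985, 819, 1237 and 746 and a response of 0.81, against 0.17 in KO. Its 2 probes disagreed. The dimmer one, for the same transcript NM_010620, had signals of 137, 101, 44.8 and 29.5 and responses of -1.13 and -1.48, close to the other members. With the mean over both probes the response was -0.16 in WT and -0.66 in KO, so no direction is given for Kif15 on re-stimulation. Between genotypes both probes were lower in KO, with differences of -0.26 and -0.43 before and of -0.90 and -0.78 after re-stimulation.

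At the centromere, Cenpf, a farnesylated protein of the outer kinetochore, had signals of 7932, 5457, 2186 and 1201, genotype differences of -0.53 and -1.04, and responses of -1.38 and -1.88. Ndc80 and Nuf2 form 1 end of the complex that binds microtubules. Ndc80 had signals of 1235, 917, 374 and 255, with -0.42 and -0.73 between genotypes and -1.24 and -1.55 on re-stimulation, and Nuf2 had signals of 5918, 4857, 2056 and 1367, with -0.28 and -0.76, and -1.04 and -1.53. In every comparison these partners differed from each other by less than the scanner's error of 0.204. Cenpe, a kinetochore motor, had signals of 33214, 25134, 14356 and 9662, with -0.40 and -0.75, and -0.73 and -1.08. Cenpa, the histone H3 variant that marks the centromere, differed from these. Its signals were 2671, 2387, 1787 and 1168, its response in WT was -0.10, within the scanner's error and 0.20 under the Cd3e scaling, and that in KO was -0.73. Its genotype difference went from -0.16 to -0.79.

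Among spindle assembly genes, Nusap1, which bundles microtubules around chromosomes, stood out by its value in KO (+). Its signals were 5202, 3674, 1728 and 742, its genotype difference went from -0.50 to -1.39, or 2.63-fold lower in KO, and its responses were -1.11 and -2.01. The difference of its responses, -0.90, was the lowest of all members, followed by Cdc25b at -0.89. Nusap1 had 1 probe, so there is no other reading. Tpx2, the activator of Aurora A on the spindle, had signals of 5734, 4575, 1602 and 1157, with -0.32 and -0.64 between genotypes and -1.36 and -1.68 on re-stimulation. Hmmr, a spindle pole protein, had signals of 2318, 1937, 867 and 666, with -0.25 and -0.55, and -0.94 and -1.24. Both passed the 1.5-fold rule on re-stimulation in either genotype.

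In cytokinesis, Racgap1, the GTPase-activating subunit of centralspindlin, had signals of 1435, 989.7, 388 and 208, genotype differences of -0.53 and -1.08, and responses of -1.40 and -1.95. Ect2, the exchange factor it recruits to activate RhoA, had signals of 3630.0, 2770.2, 1320.0 and 860.3, with -0.38 and -0.79, and -0.98 and -1.39. Anln, anillin, a scaffold of the contractile ring, was dim, with signals of 109, 85.6, 53.4 and 39.1, genotype differences of -0.34 and -0.62, and responses of -0.54 and -0.83. All 3 had the same order of the 4 arrays.

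The genes of anaphase had the smallest median differences of the roles on re-stimulation, with a median of -0.37 in WT and -0.64 in KO cells. Cdc20, the activator of the anaphase-promoting complex, had signals of 45368, 33433, 25056 and 16668, and its responses were -0.38 and -0.70. Its genotype differences, -0.43 and -0.76, lay near the members' medians. Ube2c, the ubiquitin-conjugating enzyme of the same complex, had signals of 15854, 12569, 8796 and 6819, with -0.33 and -0.54 between genotypes and -0.37 and -0.58 on re-stimulation. The group was not uniform: Espl1, the protease separase that cuts cohesin, had signals of 3549.9, 2332, 1003 and 708, genotype differences of -0.60 and -0.68, and responses of -1.34 and -1.42.

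Pttg1, securin, which inhibits separase until anaphase, was the single member higher in KO than in WT cells. Its signals were 6162, 6705, 4407 and 6044, a genotype difference of 0.13 before re-stimulation, within the scanner's error of 0.204, and of 0.28 after it. Its response was -0.003 in WT and 0.15 in KO cells, so this transcript was nearly level on all 4 arrays after scaling. It was the only member for which KO (+) was the highest of the 4, at 121% of its scaled level in WT (-), where the median member was left with 30.4% and Cdc25b with 15.1%.

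Top2a, topoisomerase II alpha, which untangles sister chromatids, had signals of 5596, 3444, 1456 and 827, genotype differences of -0.69 and -0.99, and responses of -1.46 and -1.76. Mki67, the Ki-67 protein of the chromosome surface and a common label of cycling cells, had signals of 41569.6, 31587, 15683 and 10493, with -0.39 and -0.75, and -0.93 and -1.29. Foxm1, the transcription factor that activates many G2/M genes, had signals of 2621, 2033, 1083 and 708, with -0.36 and -0.79, and -0.79 and -1.22. The transcript of the activator was thus lower together with those of the other members, at values near their medians.

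In 44 of the 49 members the scaled level ran WT (-), KO (-), WT (+), KO (+) from highest to lowest, an order found in 17% of the 10807 genes whose probe was well above background throughout. The other 5 were Kif15, Kif23, Cenpa, Cdc20 and Pttg1. In Kif23, Cenpa and Cdc20 the levels in KO (-) and WT (+) differed by less than the scanner's error of 0.204, so their order is not resolved. The same holds for some of the 44. Scaled levels in KO (-) and WT (+) were 4.86 and 4.81 in Ube2c, 4.89 and 4.82 in Bub3, and 0.36 and 0.26 in Plk4. The step from WT (-) to KO (-) lay within the error in Ccnb1, Birc5 and Incenp. That from WT (+) to KO (+) did so in Aurka and Bub3. The count of 44 is thus one of values and not of resolved orders.

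Further probes of the same genes gave another reading within the same arrays. Of the 71 probes well above background throughout, 70 were lower in KO both before and after re-stimulation, and 69 were lower after re-stimulation in each genotype. The 22 probes among them that were not used for a gene had medians of -0.44 and -0.71 between genotypes and of -0.96 and -1.23 on re-stimulation in WT and KO. Probes of 18 genes share their target and their RNA, so they check the probe and not the condition.

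Other genes of mitosis, a list of 80 of which 76 were named on the arrays and used, had medians of -0.27 and -0.50 between genotypes before and after re-stimulation and of -0.85 and -1.05 on re-stimulation in WT and KO cells. Of these, 73 were lower in KO before and 73 after, against 50.4% and 48.1% of all genes. At 2-fold 0 and 4 were lower, against 2.81% and 3.85%, so these counts lie near the shares of all genes. On re-stimulation 24 in WT and 42 in KO cells were at least 2-fold lower, against 13.5% and 13% of all genes. The lowest responses in KO cells were those of Pimreg, with signals of 8226, 7946, 1561 and 749 and responses of -1.92 and -3.11, and of Depdc1b, a gene of mitotic cells, with signals of 4324, 2734, 896 and 260.2, responses of -1.79 and -3.09, and a genotype difference of -0.65 before and -1.96 after. Mis18a, which prepares centromeres for new Cenpa, was higher on re-stimulation, by 1.46 in WT and 1.11 in KO cells, with signals of 989.8, 981, 1946 and 1718.

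Genes of DNA replication, 43 of 44 named and used, were as low on re-stimulation as the mitotic genes in WT cells, with a median of -0.90. There 42 of 43 were lower, against 50.2% of all genes. In KO cells their median was -0.89, with all 43 lower, against 49.4% of all genes. At 2-fold, 16 were lower in WT and 17 in KO cells, against 13.5% and 13% of all genes. Between genotypes, however, their medians were -0.04 before and -0.12 after re-stimulation, against -0.36 and -0.74 for the mitotic genes. Of the 43, 1, Prim2, a primase subunit, was 2-fold lower in each, near the 2.81% and 3.85% of all genes. Pcna, the sliding clamp, had signals of 50178, 47664, 27842 and 25337, and Mcm6, a subunit of the replicative helicase, 61104, 61490.3, 26280.1 and 28295. The median difference of responses was -0.09 for this list and -0.35 for the mitotic genes. The gap between the lists in the genotype comparisons does not depend on the scaling factor of an array, which moves both by the same amount, but it rests on 1 pair of arrays each and was not tested.

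**Figure D4:**
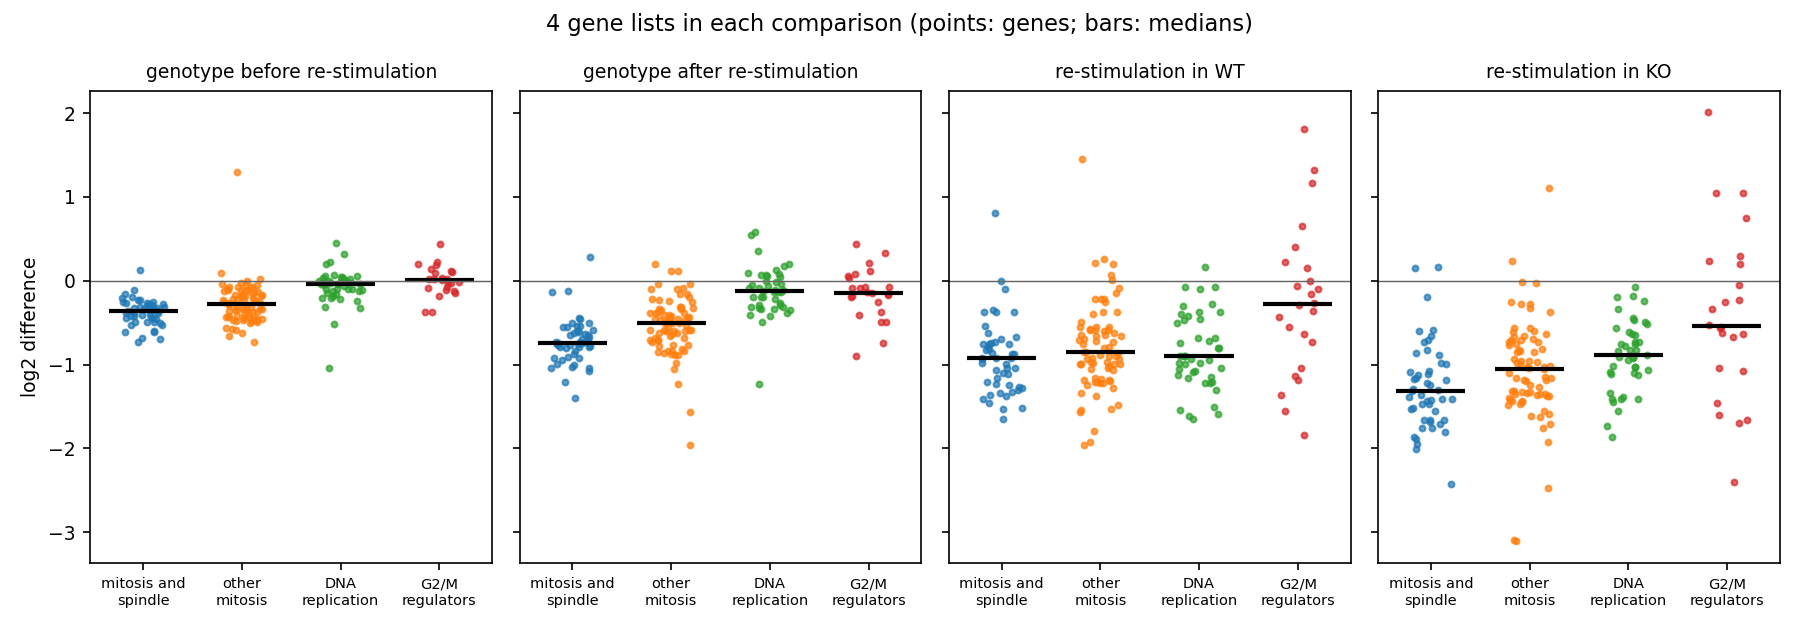
Log2 differences of single genes (points) and their medians (bars) for the 49 mitosis and spindle genes, 76 other mitosis genes, 43 DNA replication genes and 24 regulators of G2/M transcription in the 4 comparisons. Genotype differences are KO minus WT, and re-stimulation differences are re-stimulated minus not. The bars of both mitotic lists lie below 0 in all panels, while that of the replication genes lies near 0 between genotypes and near the mitotic genes on re-stimulation in WT.

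Regulators of G2/M transcription, 24 genes of the MuvB, DREAM, Rb, E2f and NF-Y complexes with Trp53 and Myc, were less uniform. Before re-stimulation 11 of the 24 were lower in KO and 13 higher, where 50.4% of all genes were lower, so this count lies near that share. After re-stimulation 17 were lower in KO, and 17 were lower on re-stimulation in each genotype, against 48.1%, 50.2% and 49.4% of all genes. Their medians were 0.01 and -0.14 between genotypes and -0.28 and -0.54 on re-stimulation, and the median in WT was 0.02 with scaling to Cd3e. Mybl2, the B-Myb subunit of the activating complex, had signals of 3147, 3574, 1844 and 1978, a difference in KO of 0.19 before and -0.07 after re-stimulation. E2f2 had signals of 19707, 17275, 3944 and 2662 and responses of -1.84 and -2.40. E2f5, a repressor, was dim, with signals of 32.5, 24.9, 82.1 and 81.8, and responses of 1.82 and 2.01. Myc was higher on re-stimulation by 1.32 in WT and 1.05 in KO cells, and Rbl1, which encodes the DREAM subunit p107, had the lowest genotype difference of the list after re-stimulation, -0.89, with -0.03 before.

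Among D cyclins, their kinases and CDK inhibitors, 11 of 12 named and used, the genes diverged. Cdkn2b, encoding the inhibitor p15, was higher in KO by 1.64 before and 2.12 after re-stimulation, with signals of 433, 1346, 523 and 2563. For Cdkn2a, the locus of p16 and p19, the differences were 0.89 and 1.93, with signals of 429, 790.02, 269 and 1157. The difference of Cdkn1b, encoding p27, was -0.16 before and -1.33 after. Re-stimulation was accompanied by a higher Ccnd2, 1.76 in WT and 1.61 in KO cells, and a lower Ccnd3, -2.52 and -2.63. The medians of this list, -0.06 and -0.03 between genotypes, describe none of these genes.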

How the data were processed

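Each of the 4 conditions was read on 1 one-colour (Cy3) Agilent array, and the 4 arrays lay on 1 slide. The authors deposited scanner output with an intensity per spot from Agilent Feature Extraction 10.7, background-subtracted and detrended by that software and not scaled between arrays, on a design of build mm9. They also deposited log2 values per probe, which equalled the scaled values described here within 0.01 for 41001 to 41026 of 41173 probes. Flags deposited beside the intensity (well above background, uneven, outlier) were used as other columns.

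Spots flagged uneven or outlying were left out (107 to 120 per array), spots of a probe were averaged as log2 intensity, and the 75th percentile of the array was subtracted. Probes were named by RefSeq accession (27471 of 41173, 66.7%) through a gene table of GRCm38.p6, used for names only. A gene was read from its brightest probe and used where the scanner's flag held for 1 or both of the arrays compared; values without the flag were lifted to the lowest flagged value of their array, which no member needed. No spot was saturated. The spread of repeated spots was 0.053 to 0.062 (median SD, log2). The flag held for 53.6% to 54% of probes per array. Precision is limited by the single array per condition.

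The members and gene lists were chosen with earlier results of these data known. Counts use a rule of size, 2-fold, with 1.5-fold as an alternative, and no test was made. All members are named, with values on every array, and of each other list at most 3 genes with the largest differences in a comparison, besides Pcna, Mcm6, Mybl2, Myc and Mis18a, chosen for their role after the values were seen. Settings tried were scaling to the median, to the 75th percentile of flagged probes or to Cd3e, quantile normalization, normexp with an offset of 50 on the median spot and background signals followed by quantile normalization, the deposited log2 table, the mean over probes, a stricter filter and no filter. On simulated arrays with noise of 0.1, 200 of 200 genes changed by 2 (log2) among 12344 were recovered at 2-fold, which checks the code only. Python 3.11.15, numpy 2.4.6, pandas 2.3.3, R 4.3.3 and limma 3.58.1 were used. ChIP-seq was not analysed here.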

Additional observations from a re-analysis of the deposited data

Results flagged for a closer look

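Pttg1, which encodes securin, was the single member whose response to re-stimulation had opposite signs in the genotypes, -0.00298 in WT and 0.15 in KO cells (log2). Both values lay within the scanner's error of 0.204, each rests on 1 pair of arrays, and the difference between them was not tested. With scaling to Cd3e the WT value was 0.29, and with scaling to the array median the KO value was -0.11. With 1 array per condition no outlying sample could be sought.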

How the results depend on the processing

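No paired analysis was possible because the conditions share a single replicate number, each being 1 array. No array could be left out of a condition for the same reason, and an additive fit of genotype and re-stimulation over the 4 arrays was not run. Of 125 values of medians and counts under other settings, 111 stayed within the spread between probes or within 1.5 times the count, and 14 moved further. With scaling to Cd3e, the members' median was -0.22 for the genotype difference before re-stimulation, -0.63 for re-stimulation in WT and -1.06 in KO cells, and the counts at 2-fold were 2 lower in KO after re-stimulation, and 10 lower and 1 higher (Kif15) on re-stimulation in WT. With scaling to the median, the responses were -1.22 in WT and -1.58 in KO cells, and 38 members were 2-fold lower in WT. Normexp with quantile normalization left 2 members 2-fold lower in KO after re-stimulation. At 1.5-fold the counts were 6 before and 38 after re-stimulation between genotypes, and 41 lower and 1 higher on re-stimulation in WT. Of 2205 values of single members, 1887 stayed within the spread between probes. The signs that turned were those of Kif15 on re-stimulation, to -0.16 in WT and -0.66 in KO with the mean over probes and to -0.10 in KO with scaling to the median, and of Pttg1 in KO, to -0.11 with scaling to the median, and in WT, to 0.29 with scaling to Cd3e and 0.03 with the 75th percentile of flagged probes. With scaling to Cd3e the genotype difference of Birc5 before re-stimulation turned to 0.0277, the response of Bub3 in KO to 0.0600 and that of Cenpa in WT to 0.20. The difference of responses of Cdc25c turned to 0.09 with normexp and to 0.07 with the mean over probes. The scalings move every gene of an array by 1 amount. Among genes past 2-fold on re-stimulation, 49.3% in WT and 48.8% in KO were higher. These shares became 29.1% and 30.8% when arrays were scaled to their median, and 71.5% and 67.7% when scaled to Cd3e. The cause of the shift in probe distribution between arrays was not tested.

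The limits are those of single arrays. Differences between mice, cultures, hybridizations and positions on the slide enter every value and were not measured, and sex and genotype label cannot be told apart. The 49 genes are expressed together in cycling cells, so their shared direction is not 49 separate observations.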

Other observations

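The members were also grouped by the number of CCAAT matches upstream of the start site, and the medians did not run in the order of that number. The median response to re-stimulation in KO cells was -1.18 in 13 measured members with none, -1.42 in 9 with 1 and -1.27 in 20 with at least 2. For the genotype difference after re-stimulation the medians were -0.71, -0.78 and -0.75, for that before it -0.28, -0.50 and -0.37, and for re-stimulation in WT cells -0.82, -1.16 and -0.92. In these 4 comparisons the members with 1 match had the lowest median. Nusap1, with neither motif in its window, had the lowest genotype difference after re-stimulation, -1.39, while Pttg1, the only member higher in KO, also had none. These counts come from 1 array per condition and no test was made.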
